A study of Mus musculus with 6 samples.

Results

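The platelet-derived growth factor (PDGF) genes and their receptors were taken from the deposited expression table by symbol, namely the ligand genes Pdgfa to Pdgfd, the receptor genes Pdgfra and Pdgfrb and the receptor-like gene Pdgfrl. Of these 7 symbols, 3 have a row among the 12151 genes of the table: Pdgfra, Pdgfrb and Pdgfa. The other 4 genes, Pdgfb, Pdgfc, Pdgfd and Pdgfrl, have no row and are not analysed here. The sequenced RNA came from cultured mouse glioma cells of 2 kinds, with 3 libraries of each. The mNS cells, labelled as neurosphere glioma stem-like cells, grew in DMEM/F12 medium with B-27 supplement, basic FGF, EGF and heparin, and were harvested at passages 72, 77 and 85. GL261, a mouse glioma line labelled as differentiated glioma cells, grew in DMEM with fetal bovine serum and was harvested at passages 17, 33 and 34 (the passage field of the last says 33, its title 34). Both media held penicillin, streptomycin, HEPES, glutamine and beta-mercaptoethanol, and cells in log phase were taken. PDGF is not named among the additives of either medium. No genotype, transgene or treatment is given for either kind of cell, and the labels do not say whether mNS was derived from GL261.

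PDGF ligands are secreted dimers that bind and pair receptor tyrosine kinases at the cell surface. The paired receptors phosphorylate each other on tyrosines, where adaptors and enzymes of the Ras, PI3-kinase, phospholipase C and Src pathways dock. PDGF-A binds the alpha receptor only, while the beta receptor is served by PDGF-B and PDGF-D. In the brain, Pdgfra marks oligodendrocyte progenitors, which divide in response to PDGF-A, and Pdgfrb marks pericytes. PDGFRA is among the receptor genes amplified in human glioma. PDGF was first known as the platelet factor through which serum makes fibroblasts and glia divide.

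Pdgfra lies on chromosome 5 from 75152292 to 75198215 (forward strand, GENCODE M21 on GRCm38), and Pdgfa on the same chromosome from 138976014 to 138997370 (reverse strand), 63.8 Mb further on. RefSeq gives 1 start site for Pdgfra and 2 for Pdgfa in the promoter table used (GRCm38.p6), and the 250 bases before each start are printed here because these genes share a chromosome and moved in opposite directions. Capitals mark, for Pdgfra, the E-box CANNTG, the site class of Olig and other basic helix-loop-helix factors, and the Sox core ACAAT, and for Pdgfa the GC box GGGCGG, the site class of Sp1, and the Egr1 site GCGNGGGCG. Both strands were searched.
Pdgfra, chr5:75152001-75152250, forward strand: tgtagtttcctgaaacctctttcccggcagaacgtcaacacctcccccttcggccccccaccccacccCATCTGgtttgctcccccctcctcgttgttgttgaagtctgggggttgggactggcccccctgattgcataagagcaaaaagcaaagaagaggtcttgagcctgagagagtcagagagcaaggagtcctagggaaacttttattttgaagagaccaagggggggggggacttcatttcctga
Pdgfa start 1, chr5:138994282-138994531, reverse strand: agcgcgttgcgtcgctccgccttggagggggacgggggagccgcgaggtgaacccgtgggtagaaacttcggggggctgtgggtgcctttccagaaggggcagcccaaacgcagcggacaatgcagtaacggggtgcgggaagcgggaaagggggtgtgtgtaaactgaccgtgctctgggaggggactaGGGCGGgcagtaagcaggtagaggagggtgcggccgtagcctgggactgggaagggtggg
Pdgfa start 2, chr5:138994945-138995194, reverse strand: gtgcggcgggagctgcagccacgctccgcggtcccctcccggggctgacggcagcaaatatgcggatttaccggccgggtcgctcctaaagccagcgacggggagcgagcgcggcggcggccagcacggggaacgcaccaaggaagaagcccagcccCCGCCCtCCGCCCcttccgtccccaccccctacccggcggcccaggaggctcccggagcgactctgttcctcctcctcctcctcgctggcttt

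The Pdgfra window held 1 E-box, which began 182 bases before the start, and no Sox core. An E-box was found in 66.2% of the 32851 promoter windows of this length in the table, and a Sox core in 27.7%. The Pdgfa windows held 1 and 2 GC boxes, where 32.7% of all windows held at least 1, and no Egr1 site, which 4.7% of all windows held. The window of Pdgfa start 1 also held 1 Sox core, left in lower case, and neither Pdgfa window held an E-box. GC made up 54.4% of the Pdgfra window and 66.4% and 72.4% of the Pdgfa windows, against a median of 52.4% over all windows. These matches are letters in a window and were not measured as binding.

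The values are in CPM, read counts scaled by the authors to the size of each library. Between 12534422 and 14225175 reads per library fell in the listed genes, and 1 read was worth between 0.0708 and 0.0773 CPM. Libraries of the same kind correlated across genes with r of 0.987 to 0.997 (Pearson, log2 scale), and libraries of different kinds with r of 0.845 to 0.856. The limma comparison, on log2(CPM + 1), took in the 12006 genes that averaged 1 CPM or more, and a gene was called at a Benjamini-Hochberg adjusted p under 0.05. Calls were common: 64.3% of tested genes passed, with 32.2% higher in mNS and 32.1% lower. Cell line, medium and passage range differ together between the groups and cannot be told apart. Only the passage numbers set libraries of 1 kind apart, and separate cultures are not stated. The p-values therefore reflect how far these particular libraries spread, which may be technical.

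Pdgfra, the alpha receptor gene, was higher in the neurospheres. Its values were 196, 284 and 322 CPM in mNS at passages 72, 77 and 85, against 101, 120.4 and 110.4 CPM in GL261 at passages 17, 33 and 34. The groups did not overlap, which was so for 69.9% of all tested genes (34.7% with mNS above, 35.2% with mNS below), and the spread was wider in mNS. The means were 267 ± 64.4 CPM in mNS and 110.5 ± 9.85 CPM in GL261 (SD, n = 3 each), a 2.42-fold rise. On the log2 scale the rise was 1.24 with an SE of 0.16 (adjusted p = 0.000204 in limma). Of the genes called higher in mNS, 26.4% had a larger log2 difference. Within mNS the passage 85 library had 1.64 times the Pdgfra level of the passage 72 library, with a 95% exact binomial interval of 1.56 to 1.72 that covers counting error only. In these bulk cultures, fewer cells with a transcript and less of it per cell cannot be told apart.

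Pdgfrb, the beta receptor gene, was near the detection limit in the neurospheres. It had 2, 1 and 2 reads in mNS, or 0.151, 0.0773 and 0.142 CPM, against 21, 40 and 37 reads in GL261, or 1.57, 2.99 and 2.67 CPM. No mNS library came near the lowest GL261 library, and the GL261 level was itself low. The means were 0.123 ± 0.0401 CPM in mNS and 2.41 ± 0.748 CPM in GL261, a 19.5-fold lower level in mNS. From the summed reads alone, 5 in mNS and 98 in GL261, the ratio of GL261 to mNS was 19.4 with a 95% exact binomial interval of 8.05 to 61.2. The log2 difference was -1.58 ± 0.20 with 1 CPM added (limma adjusted p = 0.000153). The added 1 CPM compresses a difference at this level, and edgeR's quasi-likelihood test on the recovered reads gave -4.18 (adjusted p = 8.33e-05). Pdgfrb, on chromosome 18 from 61045150 to 61085061 (forward strand), passed the filter on low values through its GL261 level only. The 2 adjusted p-values given for Pdgfrb therefore carry no weight of their own.

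Pdgfa, the ligand gene of the alpha receptor, was lower in the neurospheres. It had 21.6, 20.1 and 19.4 CPM in mNS, against 69.4, 79.8 and 75.5 CPM in GL261. The groups were far apart relative to their spread, with means of 20.4 ± 1.12 CPM in mNS and 74.9 ± 5.24 CPM in GL261 (SD, n = 3 each). This is a 3.68-fold fall and a log2 difference of -1.83 ± 0.09 (limma adjusted p = 4.07e-07). Among the genes called lower in mNS, 11.8% had a larger log2 difference than Pdgfa. All 3 measured genes were thus called, where 64.3% of all tested genes were. Each differed by at least 1 on the log2 scale, and 19.7% of all tested genes were called with such a difference. A called difference at least as large as that of Pdgfra was found for 14.9% of tested genes. Since Pdgfrb passed the filter through 1 group, these counts of members carry no weight of their own.

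**Figure D1:**
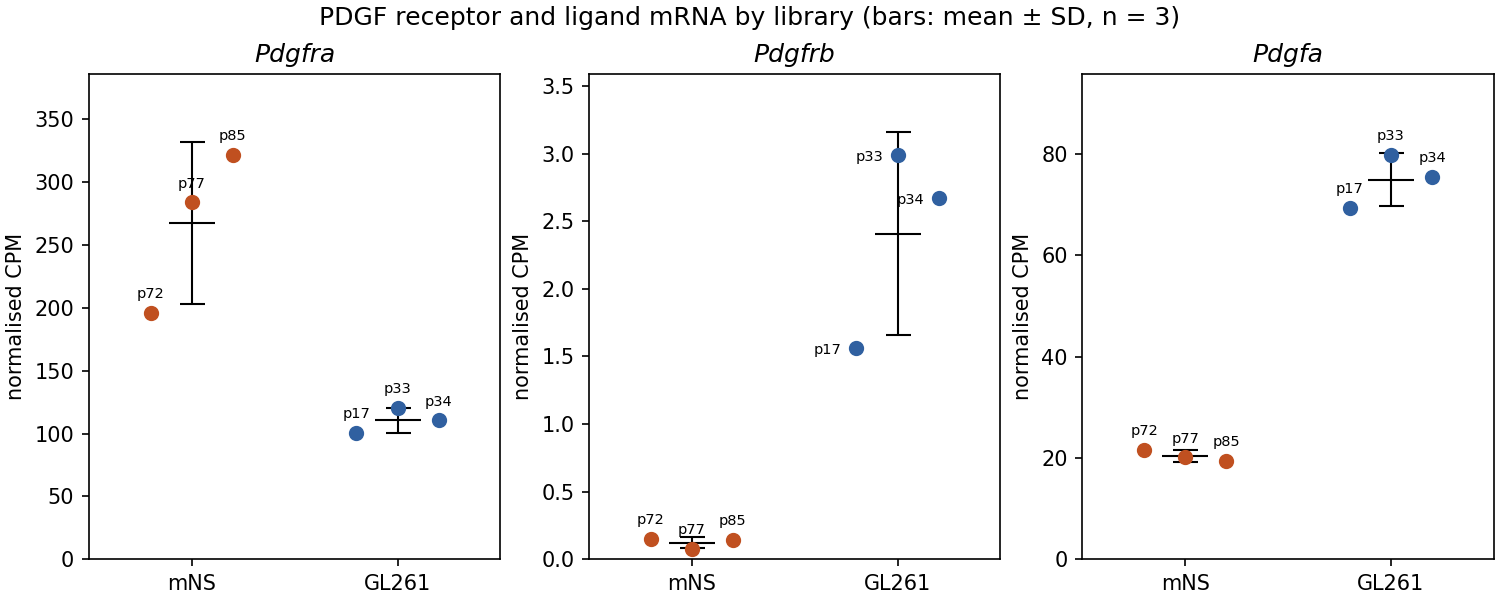
Normalised CPM of Pdgfra, Pdgfrb and Pdgfa (vertical axes, each from 0) in each mNS and GL261 library (points, marked by passage), with the mean and SD of 3 libraries as bars. Pdgfra lies between 196 and 322 CPM in mNS, above all GL261 libraries, while Pdgfrb and Pdgfa lie lower in every mNS library than in any GL261 library.

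Set per kilobase of annotated exon, the order of receptor and ligand differed between the kinds of cell. Pdgfra stood at 26.7 ± 6.43 CPM per kilobase in mNS and 11.0 ± 0.983 in GL261, and Pdgfa at 6.53 ± 0.359 CPM per kilobase in mNS and 24.0 ± 1.68 in GL261 (SD, n = 3 each). The level of Pdgfra was therefore 2.83 to 5.16 times that of Pdgfa in mNS, against 0.452 to 0.469 times in GL261. Pdgfrb was the lowest of the 3 genes in every library, at 0.0225 ± 0.00732 CPM per kilobase in mNS and 0.440 ± 0.137 in GL261. The lengths used were 10024 bases for Pdgfra, 3119 for Pdgfa and 5478 for Pdgfrb, the union of all annotated exons. With the longest coding transcript as the length, chosen after the values were seen, the ratio of Pdgfra to Pdgfa was at least 2.74 in every mNS library and at most 0.455 in every GL261 library.

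Among the 11432 genes of the table with a length, Pdgfra lay above 75.9%, 83.7% and 86.0% in the mNS libraries, against 57.2%, 61.6% and 59.3% in the GL261 libraries. Pdgfa lay above 46.3%, 44.4% and 43.4% in mNS, against 77.4%, 79.8% and 78.7% in GL261. Pdgfrb lay above less than 1% of these genes in each mNS library and above 5.48% to 9.39% in GL261.

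**Figure D2:**
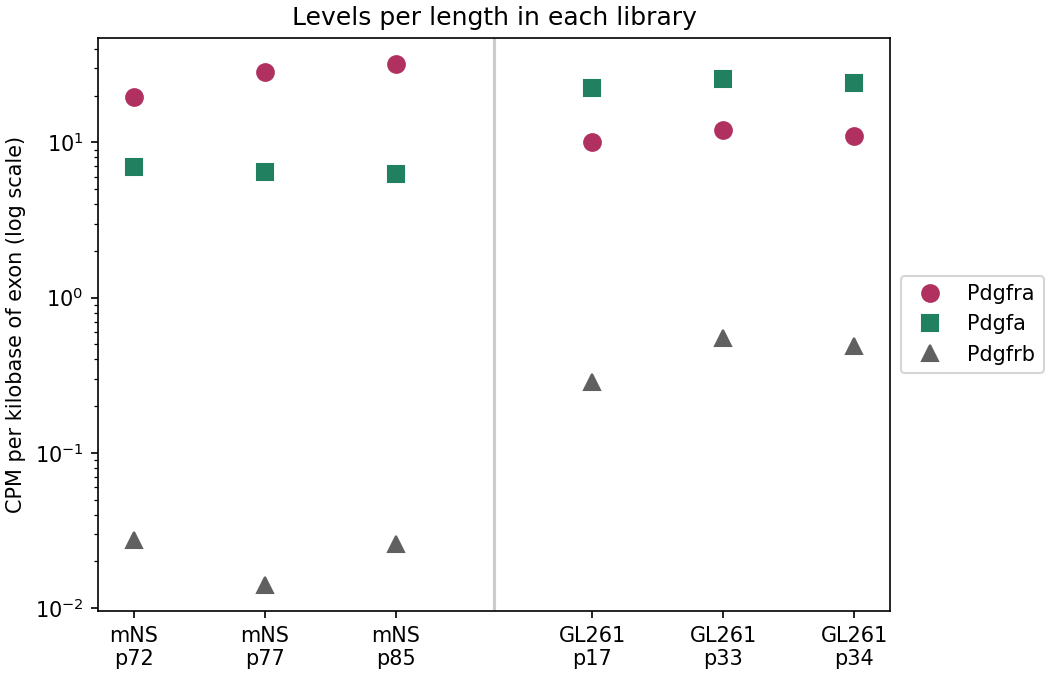
Level per length (CPM per kilobase of exon, log scale) of Pdgfra (circles), Pdgfa (squares) and Pdgfrb (triangles) in each mNS and GL261 library, named by passage. Pdgfra lies above Pdgfa in the 3 mNS libraries and below it in the 3 GL261 libraries, and Pdgfrb is lowest throughout.

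Within a library, the log2 ratio of Pdgfra to Pdgfrb, each with 1 CPM added, was 7.87 ± 0.39 in mNS and 5.05 ± 0.22 in GL261 (SD, n = 3 each). The difference was 2.82, with an exact two-sided permutation p = 0.1, the smallest that 3 against 3 libraries allow. Pdgfrb averaged 0.123 CPM in mNS, so the added 1 CPM makes up most of its term there. Since Pdgfrb passed the filter through GL261 only, this ratio and its test carry no weight of their own. The log2 ratio of Pdgfra to Pdgfa, compared after the values were seen, was 3.62 ± 0.44 in mNS and 0.55 ± 0.03 in GL261, a difference of 3.07 with the same exact permutation p = 0.1. In both ratios every mNS library lay above every GL261 library.

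The profile over the 6 libraries was compared with those of other tested genes by the root mean square difference of log2(CPM + 1). Each gene was centred on its own mean. Numbered gene models and sequences, Rik clones, small RNAs and the other members were left out. Closest to Pdgfra were C2cd2 (0.07), Srl, which encodes sarcalumenin (0.08), and Tead3, a transcription factor gene of the Hippo pathway (0.11). Closest to Pdgfrb were As3mt, an arsenic methyltransferase gene (0.07), Rabggta (0.09) and the centromere gene Cenpl (0.09). The added 1 CPM compresses the difference of Pdgfrb, so this likeness does not hold for the folds of mean CPM. As3mt was 3.49-fold, Rabggta 3.24-fold and Cenpl 3.29-fold lower in mNS, against 19.5-fold for Pdgfrb. Closest to Pdgfa were the atypical protein kinase C gene Prkci (0.06), the claudin gene Cldn12 (0.06) and the zinc finger gene Zfp521 (0.06). Srl had 21.7, 27.2 and 34.6 CPM in mNS at passages 72, 77 and 85, against 10.1, 11.2 and 10.8 CPM in GL261. With 6 libraries in 2 groups, such profiles are mostly the group difference.

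Genes that process PDGF ligands, or that hold them at or near the cell, were mostly lower in mNS. Of 14 symbols listed, 9 were tested, 6 fell and 2 rose, with a median log2 difference of -1.74 against -0.0027 over all tested genes, of which 32.1% were called lower and 32.2% higher. Nrp1, the gene of the coreceptor neuropilin 1, had 0.981, 0.309 and 0.496 CPM in mNS, against 273, 323 and 335 CPM in GL261 (log2 difference -7.62 ± 0.16, limma adjusted p = 7.03e-09). Like Pdgfrb, Nrp1 averaged under 1 CPM in mNS and passed the filter on low values through GL261 only, so it had to differ and its place among the genes that fell carries no weight of its own. The same holds for Pgf, Gsx2, Ccl2, Sox5, Acta2, Tagln and Notch3, named further on, each of which passed through 1 group only. Sparc, whose secreted product binds PDGF, fell to 204 ± 20.8 CPM in mNS, against 2883 ± 338 CPM in GL261 (log2 difference -3.81). Hspg2, the gene of the basement membrane proteoglycan perlecan, fell 9.29-fold. Adamts1, a secreted metalloprotease gene, went the other way, with 2788 ± 418 CPM in mNS and 333 ± 97.1 CPM in GL261 (log2 difference 3.09).

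Other genes of this list were named after their values were seen. Plat, the gene of tissue plasminogen activator, which activates PDGF-C, had 161, 143 and 137 CPM in mNS, against 507, 1616 and 1494 CPM in GL261 (log2 difference -2.86, limma adjusted p = 0.000203). The GL261 library at passage 17 was the lowest of its group, yet all 3 lay above mNS. Furin, a proprotein convertase gene, rose 1.7-fold, whereas Pcsk7, another convertase gene, had 42.5, 38.0 and 39.4 CPM in mNS, against 38.0, 34.7 and 39.2 CPM in GL261, and was not called. Lrp1, an endocytic receptor that associates with the beta receptor, fell 1.8-fold.

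The adaptors and effectors that dock on activated PDGF receptors were present in both kinds of cell and moved little. All 27 listed genes were in the table and tested, Hras under the symbol Hras1. Of these, 12 rose, 6 fell and 9 were not called, a share called of 66.7% beside 64.3% of all tested genes. Their median absolute log2 difference was 0.36, against 0.40 over all tested genes. The Src family kinase gene Fyn rose to 272 ± 9.51 CPM in mNS, against 99.2 ± 4.14 CPM in GL261 (log2 difference 1.45, limma adjusted p = 2.1e-07), and the docking protein gene Gab2 rose 2.5-fold. The adaptor gene Nck2 fell 2.1-fold. Stat3 had 212 ± 34.7 CPM in mNS and 207 ± 11.4 CPM in GL261, and Pik3r2, a regulatory subunit of PI3-kinase, 129 ± 6.41 CPM in mNS and 123 ± 13.0 CPM in GL261. Neither was called. Plcg1, the phospholipase C gene, and Src rose 1.81-fold and 1.6-fold and were named after their values were seen.

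Genes that end receptor signalling were called about as often as genes in general. Of 17 tested, 6 rose and 5 fell, a share called of 64.7% beside 64.3% of all tested genes, with a median log2 difference of 0.04. Lrig1, a transmembrane inhibitor of receptor tyrosine kinases, had 97.0, 141 and 152 CPM in mNS, against 6.11, 10.5 and 13.9 CPM in GL261. Its groups were far apart (log2 difference 3.59 ± 0.26, limma adjusted p = 5.96e-06). Sh3kbp1, whose product acts with Cbl proteins in receptor uptake, rose 2.38-fold. The cytokine signalling inhibitor gene Socs3 fell to 4.55 ± 0.487 CPM in mNS, against 25.6 ± 7.20 CPM in GL261, and the receptor phosphatase gene Ptprj fell 2.73-fold. The scaffold gene Cd2ap, with 126 ± 12.5 CPM in mNS and 117 ± 8.18 CPM in GL261, was not called.

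Receptors related in structure to the PDGF receptors, listed with their ligands, split by gene. Of 9 tested, 3 rose and 1 fell, and 44.4% were called, beside 64.3% of all tested genes. Kit, the receptor gene of this list nearest to Pdgfra in position, had 84.3, 75.5 and 71.9 CPM in mNS, against 14.2, 13.7 and 15.4 CPM in GL261 (log2 difference 2.34 ± 0.09, limma adjusted p = 1.43e-07). Its ligand gene Kitl moved the other way, with 304, 249 and 220.3 CPM in mNS, against 514, 638 and 561 CPM in GL261 (log2 difference -1.15, adjusted p = 5.35e-05). For this pair too, the receptor gene was higher and the ligand gene lower in the neurospheres. The other receptors of the list with a row did not share this rise. Flt1 was not called, and Csf1r was not tested and had fewer reads in mNS (2, against 68 in GL261). Pgf, the placental growth factor gene, rose 7.26-fold, and Vegfa was called 1.22-fold higher with overlapping groups, a call lost without the mNS library at passage 72 or 77 or the GL261 library at passage 33 or 34 (log2 difference 0.22 to 0.28, against 0.28 with all libraries). The call was also lost under median centring of the libraries (adjusted p = 0.0596 in limma) and with quantile normalisation (0.0568). Csf1 and the VEGF receptor gene Flt1 were not called.

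Csf1r, the receptor gene that follows Pdgfrb on chromosome 18, lay below the filter and carries no test. It had 1, 0 and 1 reads in mNS, against 31, 21 and 16 reads in GL261, a ratio of GL261 to mNS of 33.7 with a 95% exact binomial interval of 8.98 to 284. Csf1r is best known from macrophages and microglia. Of 8 other markers of those cells 7 had no row, and the 1 present, Cd68, rose to 8.09 ± 1.32 CPM in mNS, against 2.95 ± 0.156 CPM in GL261.

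**Figure D3:**
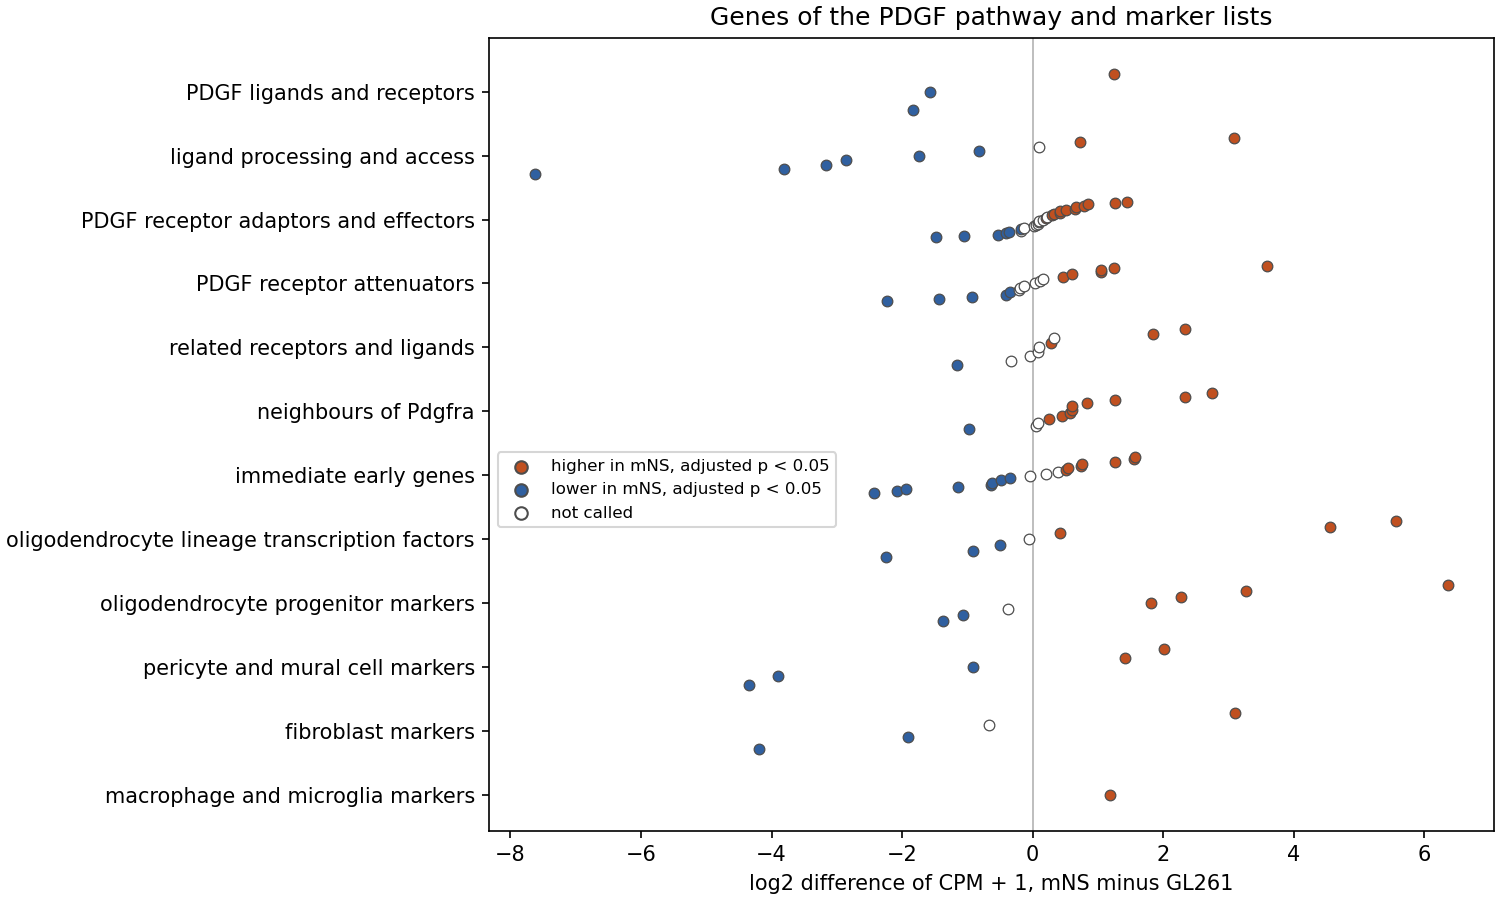
Log2 difference of CPM + 1, mNS minus GL261 (horizontal axis), for every tested gene (points) of the PDGF genes and of each list; orange points were higher and blue points lower in mNS at an adjusted p under 0.05, and open points were not called. Ligand processing genes lie mostly below 0 (6 of 9), while 12 of 27 adaptors rose and 6 fell.

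Several genes around Pdgfra on chromosome 5 were higher in mNS. Of 12 listed neighbours tested, with starts between 1084 kb before and 1436 kb after that of Pdgfra, 9 rose, 1 fell and 2 were not called, where 32.2% of all tested genes rose. Their median log2 difference was 0.59. The list leaves out 1 tested gene of this span, Dancr (0.19, not called; named after its value was seen), so that 9 of all 13 tested there rose. Beyond the span, 4 of the 9 tested genes that start 1504 to 2984 kb before Pdgfra rose and 2 fell, and of the 7 that start 1753 to 2158 kb after it none rose and 3 fell. The nearest were Gsx2, a homeobox gene of the forebrain, 76.7 kb before the start of Pdgfra, and Chic2, 107 kb before it. Gsx2 had 60, 83 and 89 reads in mNS and none in any GL261 library. That is at least 25.95-fold more in mNS if each GL261 library is given 3 reads. Chic2, which encodes a membrane-anchored protein, had 77.9, 80.4 and 82.0 CPM in mNS, against 32.7, 35.6 and 30.4 CPM in GL261. Its log2 difference was 1.26 ± 0.08 (limma adjusted p = 2.28e-06), beside 1.24 for Pdgfra. Kit starts 423 kb after Pdgfra.

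Among the listed neighbours further out than Kit, the differences were smaller than those of Chic2 and Pdgfra. Size did not fall with distance throughout. Atp10d, beyond the span of the list before Pdgfra and named after its value was seen, rose by 1.23 on the log2 scale (limma adjusted p = 0.00239). Before Pdgfra, the RNA processing gene Fip1l1 and the gene Scfd2 rose by 0.58 and 0.83 on the log2 scale, and the deubiquitinase gene Usp46 by 0.61. Rasl11b, a Ras-like gene 957 kb before Pdgfra, fell to 3.24 ± 0.664 CPM in mNS, against 7.26 ± 0.961 CPM in GL261. After Kit, Tmem165 rose by 0.25, the circadian gene Clock by 0.45 and the exocyst gene Exoc1 by 0.61 on the log2 scale. Srd5a3 (0.08) and the centriole gene Cep135 (0.05) were not called. Copy number was not measured here.

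**Figure D4:**
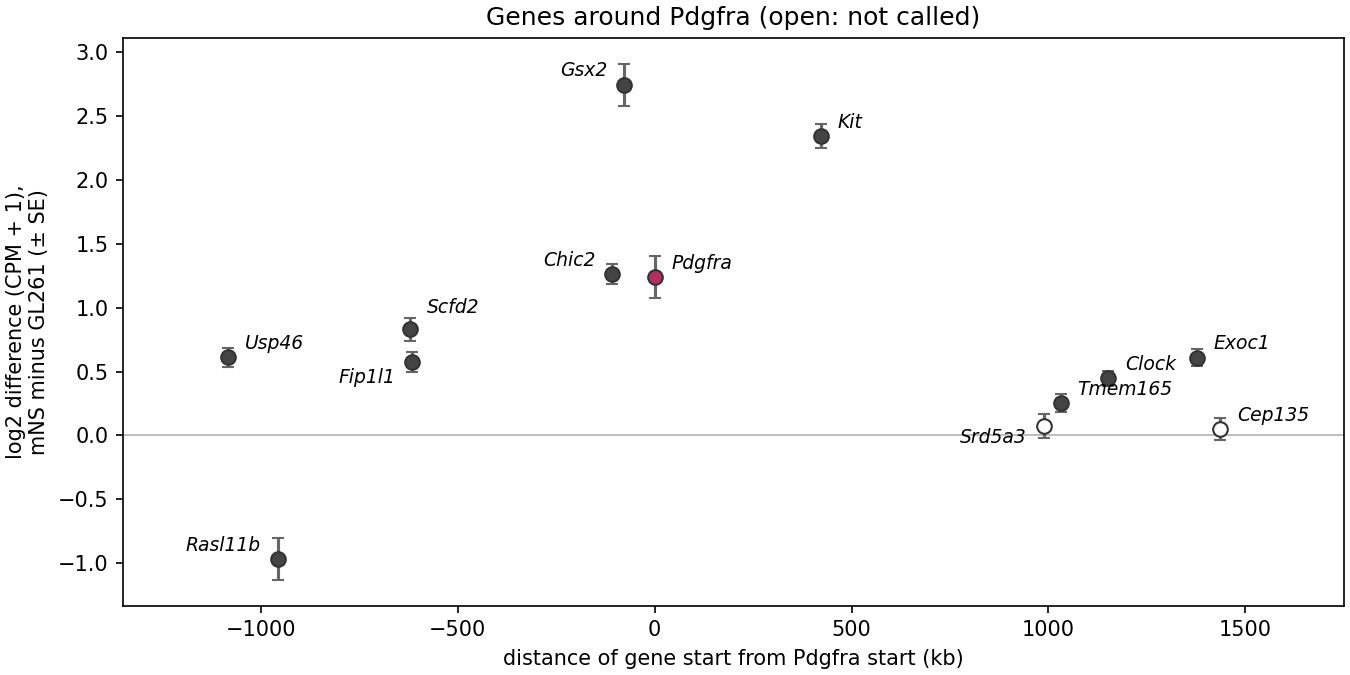
Log2 difference of CPM + 1, mNS minus GL261 (vertical axis, ± SE), of Pdgfra (red) and its 12 tested neighbours by the distance of each gene's start from that of Pdgfra (horizontal axis, kb; filled points called, open points not). Gsx2, Kit, Chic2 and Pdgfra lie above 1, and Rasl11b alone lies below 0.

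Genes known to be induced early by PDGF in fibroblasts showed no common direction. Of 18 tested, 7 rose and 8 fell, with a median log2 difference of 0.08. The share called was 83.3%, beside 64.3% of all tested genes, of which 32.2% rose and 32.1% fell. The phosphatase gene Dusp1 had 26.3, 21.0 and 17.8 CPM in mNS, against 119, 123 and 118 CPM in GL261 (log2 difference -2.43 ± 0.13, limma adjusted p = 7.67e-07). Fosl1, an AP-1 subunit gene, fell 6.95-fold and Has2, a hyaluronan synthase gene, 3.83-fold. Ccl2, the chemokine gene first cloned as a PDGF-induced gene in fibroblasts, had 13, 38 and 36 reads in mNS, against 1, 0 and 0 reads in GL261. The ratio of mNS to GL261 was 87.7 with a 95% exact binomial interval of 15.3 to 3504. Myc, with 173 ± 22.4 CPM in mNS and 103 ± 4.75 CPM in GL261, and Klf6 rose and were named after their values were seen. The immediate early genes Egr1, with 5.65 ± 2.04 CPM in mNS and 4.74 ± 1.33 CPM in GL261, and Zfp36 were not called. These genes also answer to serum and other growth factors.

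Transcription factors of the oligodendrocyte lineage, where Pdgfra is expressed, differed by gene. Of 7 tested, 3 rose and 3 fell, a share called of 85.7% beside 64.3% of all tested genes. Olig2 had 414, 437 and 459 CPM in mNS, against 5.29, 9.19 and 11.1 CPM in GL261, and Olig1 rose 23.0-fold. Sox10, which is active in progenitors and in myelinating cells, fell to 208 ± 18.5 CPM in mNS, against 392 ± 12.7 CPM in GL261. Sox5, a factor of the progenitor stage, fell 10.6-fold. Its partner Sox6, with 418 ± 24.0 CPM in mNS and 434 ± 34.6 CPM in GL261, was not called.

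Markers of cells known to express PDGF receptors were compared on the same scale. Of 10 oligodendrocyte progenitor markers 7 were tested, 4 rose and 2 fell. The share called was 85.7%, beside 64.3% of all tested genes, of which 32.2% rose and 32.1% fell. The summed level of the 7 tested markers was 1026 to 1105 CPM in mNS, against 307 to 365 CPM in GL261. In mNS most of it came from Ptprz1, Bcan and Vcan. The phosphatase gene Ptprz1, with 489 ± 7.02 CPM in mNS and 5.02 ± 1.19 CPM in GL261, and the matrix proteoglycan gene Bcan, which rose 10.3-fold, were among the risers. So were Lhfpl3 (5.78-fold) and Vcan (3.57-fold), while Gpr17 was not called. Cspg4, which encodes the proteoglycan NG2 of both progenitors and pericytes, fell to 85.6 ± 11.5 CPM in mNS, against 224 ± 34.1 CPM in GL261, and was named after its value was seen. C1ql1, also named after its value was seen, fell to 5.53 ± 0.988 CPM in mNS, against 12.6 ± 1.47 CPM in GL261.

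Of 12 pericyte and mural cell markers 7 had no row, among them Rgs5, Kcnj8 and Abcc9. The summed level of the 5 present was 877 to 1020 CPM in mNS, against 1538 to 2287 CPM in GL261, nearly all of it from Mcam, an adhesion molecule gene named after its value was seen. Acta2 and Tagln, genes of smooth muscle actin and its partner transgelin, had 11 and 8 reads over the mNS libraries, against 993 and 684 over the GL261 libraries. The ratios of GL261 to mNS were 89.5 (95% exact binomial interval 49.8 to 180) and 84.8 (42.8 to 197). Without the mNS library at passage 85 the ratio of group means of Acta2 was 161, against 91.8 with all. Des and Notch3 rose 6.25-fold and 9.35-fold. Notch3 had 10 reads over the GL261 libraries, and its fold was 21.1 without the GL261 library at passage 33. Of 10 fibroblast markers 4 were tested: Col1a1 fell to 6.18 ± 2.03 CPM in mNS, against 127 ± 9.75 CPM in GL261, Prrx1 fell 3.83-fold, Fbln1 rose 9.01-fold and Col3a1 was not called. None of 7 endothelial markers had a row. The part of any other cell type in the levels of Pdgfra, Pdgfrb and Pdgfa was not tested.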

How the data were processed

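Stranded libraries of ribosomal RNA-depleted total RNA were sequenced as single reads, per the labels. TopHat2 (version 2), HTSeq 0.5.3p9, edgeR 3.4.2 and build mm10 are listed, without roles, in the submitters' processing notes, and the series text describes TMM factors and edgeR's exact test. The deposited table holds a normalised signal per gene and library, counts that the authors scaled to CPM with TMM factors. No source used here states whether counting used strand. Divided by the smallest value above 0 in their column, 100% of values were whole within 0.001, which gave the reads.

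Tests were two-sided (limma 3.58.1 in R 4.3.3, eBayes with a trend), with genes under a mean of 1 CPM left out; folds are ratios of mean CPM. The scripts were checked on simulated data. Alternatives were other pseudocounts, filters and scalings, array weights, edgeR 4.0.16 and DESeq2 1.42.0 on the recovered reads, and leaving out each library. Members and the 12 lists (120 of 173 list symbols have a row) were chosen with earlier results of these data known. The rule for names took all members and tested neighbours, from each list up to 4 called genes with the largest differences and up to 2 uncalled ones with the highest mean, and 3 closest profiles per member. Some genes that this rule takes are not reported here. Lengths and positions are from GENCODE M21, promoters from RefSeq (GRCm38.p6). Annotated antisense genes overlap Pdgfra and Pdgfa, and none of them has a row. The floor of 3 reads and the 95% exact binomial (Clopper-Pearson) intervals cover counting error only. Python 3.11.15, pandas 2.3.3, scipy 1.17.1 and matplotlib 3.10.9 were used.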

Additional observations from a re-analysis of the deposited data

How the results depend on the processing

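No paired analysis was possible, because the groups share no passage and no label links an mNS library to a GL261 library. Pdgfra, Pdgfrb and Pdgfa kept their direction and their call under all alternatives that gave a value (20 for Pdgfra and Pdgfa, 19 for Pdgfrb, which a filter at a mean of 5 CPM leaves out). Pdgfrb passed the main filter through GL261 only, so its kept calls carry no weight of their own. The log2 difference ranged from 1.09 to 1.45 for Pdgfra, from -4.27 to -1.45 for Pdgfrb and from -1.89 to -1.74 for Pdgfa. The number of genes called was 7651 in edgeR's quasi-likelihood test and 7353 in DESeq2, 6612 to 7781 without 1 library and 9488 with array weights, a fit that gave a convergence warning. No scaling moved the median gene by over 0.1. The planned ratio of Pdgfa to Pdgfc was not run, since Pdgfc has no row.

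Dancr, Atp10d and C1ql1 were not followed under the alternatives. For the 80 other named genes, 1559 of 1593 values kept direction and call, 8 lost a call, 11 gained one and 15 changed sign. Those that changed sign belong to 6 genes that were not called, and the cause was not tested. The log2 difference was -0.00553 for Stat3 with median centring, 0.0463 for Flt1 and 0.0374 for Sox6 with columns set to a common sum, and 0.127 for Sox6 with quantile normalisation. With array weights it was 0.2003 for Flt1 and -0.0691 for Egr1. Without 1 library it ran from -0.0660 to 0.160 for Stat3, from -0.0854 to 0.3003 for Csf1, from -0.183 to 0.198 for Flt1, from -0.0101 to 0.0901 for Cep135 and from -0.0411 to 0.360 for Egr1.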
